A study of Mus musculus with 8 samples.

Results

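The genes described here are those of MHC class I and CD1 antigen presentation, chosen as the symbols B2m, H2-K1, H2-D1, Tap1, Tap2, Tapbp, Psmb8, Psmb9, Cd1d1 and Cd1d2 in the table of raw counts. Of these 10 listed genes, 9 were found among the 16109 genes of the table, and Psmb9 is not analysed here. Messenger RNA was sequenced from mouse retina to compare C3-deficient animals with wild-type animals during the growth of the retinal vessels. The 8 libraries came from C57BL/6 mice on postnatal day 5, with 4 labelled C3 KO and 4 labelled wild type (WT). The labels give the genotype by name only and do not describe the targeted allele. They also do not give the number of animals or retinas behind a library, so p-values measure the spread between these libraries, which may be technical. Hyaloid vessels had been taken off the retinas before RNA was extracted, and poly(A) RNA was used in both groups.

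Class I molecules show the inside of a cell to lymphocytes. The proteasome cuts cytosolic proteins, with immunoproteasome subunits such as Psmb8 and Psmb9 exchanged in under interferon, and the transporter made of Tap1 and Tap2 carries the peptides into the endoplasmic reticulum. There tapasin (Tapbp) helps to load them onto a heavy chain such as H2-K1 or H2-D1, which is held in shape by the light chain beta 2-microglobulin (B2m). CD1d pairs with the same light chain but presents lipids, to natural killer T cells, after loading in endosomes. In the retina and other nervous tissue class I levels are known to be low, and class I molecules have also been studied there for roles in synapse refinement.

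The libraries held 17621087 to 19493979 reads under the C3 KO label and 16503564 to 19608824 reads under the WT label, and 15850 genes were tested. The targeted gene itself went against the labels. C3 averaged 84.5 ± 3.49 CPM under the C3 KO label and 2.59 ± 0.642 CPM under the WT label (SD, n = 4 each), or 5.04 ± 0.10 (SE) on the log2 scale (edgeR adjusted p = 1.393e-20). Every direction below is therefore a direction between libraries as labelled, and the labels' genotype could not be checked. CPM is a gene's reads scaled to a common library total, and a gene was called at an adjusted p below 0.05. A change in bulk tissue cannot tell fewer cells of a type apart from less RNA per cell. The sources used here do not state whether reads were counted by strand, nor how reads that match several places were treated.

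Between the labels, B2m was higher and Cd1d2 lower in the libraries labelled C3 KO, and the other 7 measured genes did not pass the test. B2m, the shared light chain, was 1.22-fold higher, and Cd1d2, the smaller in expression of the pair of mouse CD1d genes, was 4.13-fold lower. Thus 2 of 9 genes were called, 1 in each direction, against 14.3% of all genes tested, 8.33% called higher and 5.98% called lower. The groups did not overlap for the same 2 genes, against 17.4% of all genes. The log2 fold change was positive for 5 of 9 genes, and its median was 0.01, beside 0.0044 over all genes tested. With 9 genes, these counts do not set the pathway apart from the rest of the transcriptome.

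**Figure D1:**
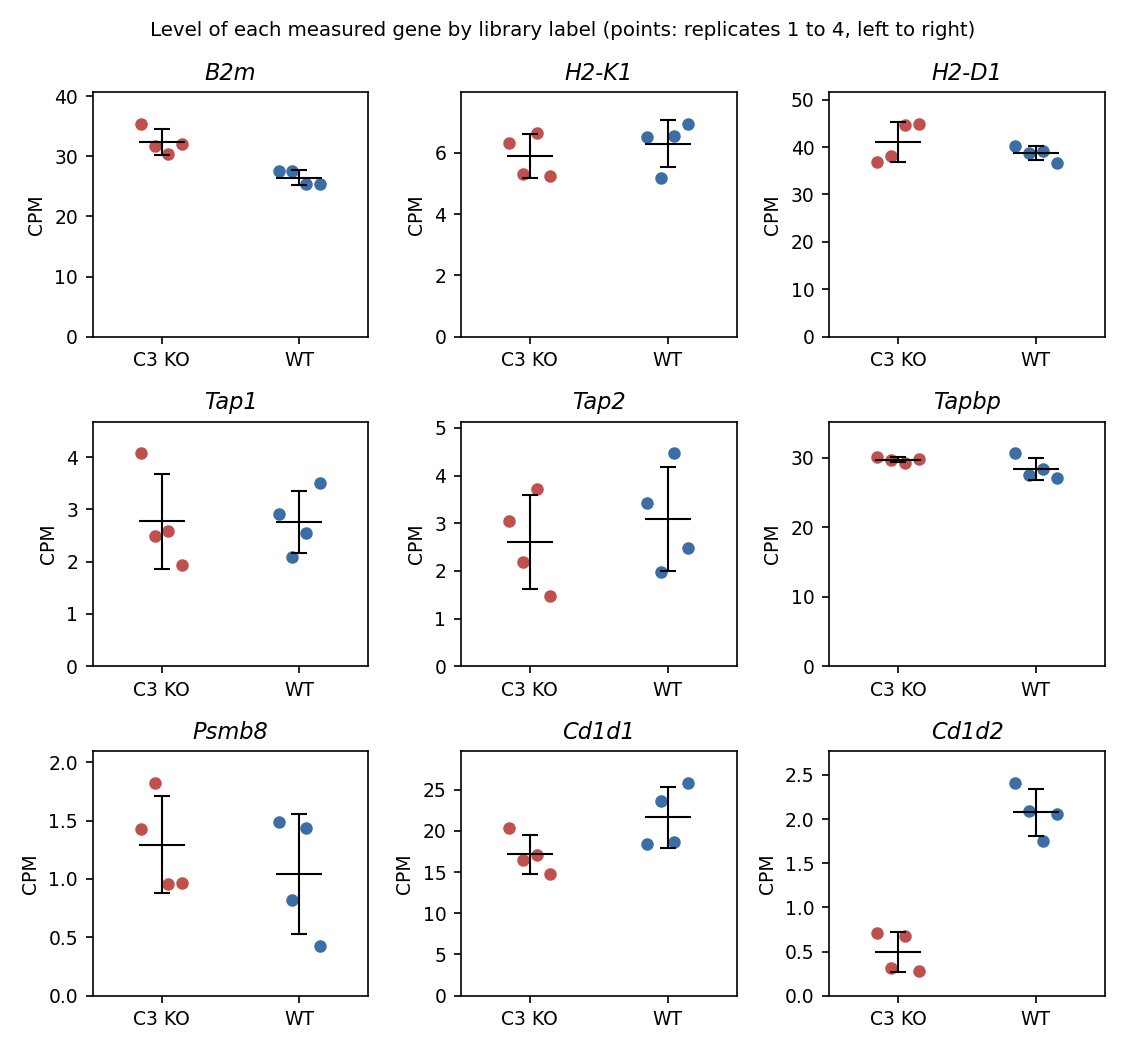
CPM of the 9 measured genes in each library, with C3 KO left of WT; points are replicates 1 to 4, and the bars give the mean and SD (n = 4 each). The groups are apart for B2m (30.4 to 35.4 CPM under the C3 KO label, 25.3 to 27.5 CPM under the WT label) and for Cd1d2, and overlap in the other 7 panels.

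B2m is required for nearly all class I and CD1 molecules to reach the cell surface. Its level was 35.4, 31.7, 30.4 and 32.0 CPM in C3 KO replicates 1 to 4 as labelled, against 27.5, 27.5, 25.5 and 25.3 CPM in WT replicates 1 to 4. Each C3 KO library lay above each WT library, and replicate 1 was the highest of the 8. The means were 32.4 ± 2.12 CPM in C3 KO and 26.5 ± 1.23 CPM in WT (SD, n = 4 each), from 2407 and 1909 reads in all. The log2 fold change was 0.29 (SE 0.07, 95% interval 0.14 to 0.45, edgeR adjusted p = 0.0105). With the mean log2 CPM of Y-linked genes as a covariate it was 0.34 and not called (adjusted p = 0.0998). That Y-linked mean lay between 6.16 and 6.37 in all C3 KO libraries and was 6.18 in WT replicate 3. It was −0.978 in WT replicate 1, and 2.29 and 1.90, between those levels, in WT replicates 2 and 4. Y-linked genes are carried by males, so the likely sex behind the libraries moved with the labels, except in WT replicate 3. Whether WT replicates 2 and 4 held RNA of both sexes was not tested. Only WT replicate 3 reached the C3 KO level, so for every difference given here sex and genotype label can hardly be told apart. Microglia, which carry much B2m, had summed marker levels of 253.5 to 301.5 CPM under the C3 KO label and 204.7 to 253.4 CPM under the WT label. All 17 microglia markers had a positive log2 fold change, with a median of 0.28, and 5 were called higher, beside 8.33% of all genes tested. Their part in the B2m difference was not tested.

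H2-K1 and H2-D1 are the classical heavy chains, which hold the peptide and face the T cell receptor. H2-K1 had 6.31, 5.31, 6.66 and 5.23 CPM in C3 KO replicates 1 to 4, against 6.51, 5.18, 6.54 and 6.94 CPM in WT replicates 1 to 4. H2-D1 had 36.8, 38.2, 44.6 and 44.9 CPM in C3 KO, against 40.2, 38.7, 39.2 and 36.7 CPM in WT. For both the groups overlapped, although C3 KO replicates 3 and 4 held the highest H2-D1 levels of the series. The log2 fold change was −0.10 for H2-K1 (SE 0.15, 95% interval −0.41 to 0.21, edgeR adjusted p = 0.717) and 0.08 for H2-D1 (SE 0.07, 95% interval −0.07 to 0.24, adjusted p = 0.485). The data thus leave room for a rise of H2-K1 of 0.21 on the log2 scale and for a fall of 0.41. Heavy chain genes are near-copies, and 13.9% of the 50-base stretches of H2-D1 transcripts, and 6.87% of those of H2-K1, also occur in transcripts of other genes. With the reads of 9 heavy chains summed (H2-K1, H2-D1, H2-Q2, H2-Q4, H2-Q6, H2-Q7, H2-Q8, H2-T22 and H2-T23), the level was 64.3 ± 5.52 CPM in C3 KO and 61.0 ± 3.01 CPM in WT (SD, n = 4 each). H2-D1 alone gave 41.1 CPM of it in C3 KO and 38.7 CPM in WT. That sum does not depend on how reads were split among the 9 genes, but any reads dropped for matching several genes are missing from it. The measured H2-K2, H2-M3 and H2-M5 are not part of it. Of the H2-D1 stretches 2.64% also occur in H2-K2, so reads split with H2-K2 can still move the sum. The sum was not called, at 0.07 on the log2 scale (SE 0.06, 95% interval −0.06 to 0.21, adjusted p = 0.483).

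The promoters of the light and heavy chains are shown because B2m passed the test and H2-K1 and H2-D1 did not, while all carry the same kinds of motif. Capitals mark matches to the interferon regulatory factor core AANNGAAA, the NF-kB consensus and the CCAAT box, on either strand; the NF-kB matches in H2-K1 and H2-D1 overlap one another. The sequences are from RefSeq (GRCm38.p6), read 5′ to 3′ on the gene's strand. For H2-K1 the reference held 2 promoter windows, and only the first listed was searched and is shown.
B2m promoter (chr2:122147545-122147643, plus strand, bases −142 to −44 from the start): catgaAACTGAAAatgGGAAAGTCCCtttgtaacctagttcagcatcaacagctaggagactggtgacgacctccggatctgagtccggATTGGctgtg
H2-K1 promoter (chr17:34000354-34000463, minus strand, bases −116 to −7): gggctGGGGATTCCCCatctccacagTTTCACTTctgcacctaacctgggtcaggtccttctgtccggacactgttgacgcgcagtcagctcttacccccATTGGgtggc
H2-D1 promoter (chr17:35262918-35263050, plus strand, bases −176 to −44): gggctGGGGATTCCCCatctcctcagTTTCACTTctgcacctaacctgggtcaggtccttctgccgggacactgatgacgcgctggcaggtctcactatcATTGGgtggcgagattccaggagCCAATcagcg
In the 250 bases before the start, B2m, H2-K1 and H2-D1 each held all 3 motifs. Tap1, Tapbp and Psmb9 held the CCAAT box alone and Psmb8 none of the 3, and no window was at hand for Tap2, Cd1d1 and Cd1d2. The windows of Tap1 and Psmb9 overlap on opposite strands, and their CCAAT matches are the same bases. Over 32851 promoters, 21.3% held AANNGAAA, 7.3% the NF-kB consensus and 33.8% CCAAT. A match is a run of letters and not a measured binding site.

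Tap1 and Tap2 form the peptide transporter, and Tapbp bridges it to the heavy chain. Tap1 had 4.07, 2.50, 2.60 and 1.93 CPM in C3 KO replicates 1 to 4, against 2.92, 2.10, 2.55 and 3.50 CPM in WT replicates 1 to 4. Tap2 had 3.06, 2.19, 3.72 and 1.48 CPM in C3 KO, against 3.43, 1.98, 4.47 and 2.47 CPM in WT. For both, high and low libraries occurred in each group, and the groups overlapped. The log2 fold change was 0.01 for Tap1 (95% interval −0.49 to 0.51, edgeR adjusted p = 0.982) and −0.25 for Tap2 (95% interval −0.83 to 0.33, adjusted p = 0.607). These genes rested on 208 and 194 reads over the C3 KO libraries and 199 and 226 over the WT libraries, and the intervals are wide at this depth and this spread between libraries. Tapbp was far better covered, with 2207 reads in C3 KO and 2054 in WT. It had 30.2, 29.7, 29.3 and 29.8 CPM in C3 KO, against 30.7, 27.5, 28.4 and 27.2 CPM in WT. The C3 KO libraries lay within the WT range, and the log2 fold change was 0.06 (SE 0.07, 95% interval −0.08 to 0.21, adjusted p = 0.602).

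Psmb8 is the inducible subunit that replaces the constitutive Psmb5 in the immunoproteasome. It had 28, 35, 17 and 17 reads in C3 KO replicates 1 to 4, or 1.43, 1.82, 0.959 and 0.966 CPM. In WT replicates 1 to 4 it had 29, 14, 27 and 7 reads, or 1.49, 0.815, 1.44 and 0.422 CPM. The groups overlapped, and the lowest library was WT replicate 4. The log2 fold change was 0.30 with an interval wide enough to hold a fall of 0.45 and a rise of 1.04 (edgeR adjusted p = 0.636). Set against its constitutive partner per length, Psmb8 stood at 2.24 ± 0.8293% of the Psmb5 RPKM in C3 KO and 1.63 ± 0.791% in WT (SD, n = 4 each), which did not differ beyond the spread (2-sided exact permutation p = 0.314). Psmb10, which takes the place of Psmb7, stood at 5.34, 6.13, 5.54 and 5.38% of the Psmb7 RPKM in C3 KO and 4.11, 4.69, 4.87 and 4.77% in WT. Those groups did not overlap, which gives 0.0286, the smallest p that 4 against 4 libraries allow in the 2-sided exact permutation test, and 0.0857 after adjustment over the 6 ratios compared. Psmb10 itself had 10.96 ± 0.425 CPM in C3 KO and 9.03 ± 1.08 CPM in WT, a log2 fold change of 0.28 that was not called (adjusted p = 0.116).

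Cd1d1 and Cd1d2 are neighbouring copies on chromosome 3, of which Cd1d1 makes the CD1d protein that selects natural killer T cells. Cd1d2 is known to be broken by a frameshift in the C57BL/6 strain, and the GENCODE annotation of the C57BL/6 reference lists it as a polymorphic pseudogene. Aligned exon by exon, the copies share 96.3% of bases in exon 2, 93.9% in exon 3, 98.9% in exon 4 and 99.0% in exon 5, and exon 4 is 278 bases long in Cd1d2 and 279 in Cd1d1. The stretch of exon 4 around the missing base is shown because it is where the copies differ in reading frame while being otherwise nearly alike. Capitals mark bases that differ, or that face the gap. Both sequences are from GENCODE M21 transcripts (GRCm38), read 5′ to 3′ on the gene's strand.
Cd1d2 exon 4 (chr3:86988309-86988398, plus strand): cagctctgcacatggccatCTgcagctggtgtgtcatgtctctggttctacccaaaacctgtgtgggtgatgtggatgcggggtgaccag
Cd1d1 exon 4 (chr3:86997495-86997585, minus strand): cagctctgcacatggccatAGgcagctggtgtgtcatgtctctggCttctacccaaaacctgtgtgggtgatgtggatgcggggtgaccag
Of all 50-base stretches, 31.1% of those of Cd1d2 transcripts also occur in Cd1d1 and 25.1% of those of Cd1d1 in Cd1d2. The values of both genes are therefore uncertain to the extent that such reads were split or dropped.

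Cd1d2 had 14, 6, 12 and 5 reads in C3 KO replicates 1 to 4, against 47, 36, 33 and 34 reads in WT replicates 1 to 4. As CPM this was 0.713, 0.312, 0.677 and 0.284 in C3 KO, against 2.41, 2.10, 1.75 and 2.05 in WT. The highest C3 KO library was below the lowest WT library, with a wide gap between them. The means were 0.497 ± 0.230 CPM in C3 KO and 2.08 ± 0.268 CPM in WT (SD, n = 4 each). On the log2 scale C3 KO over WT was −2.05 (SE 0.34, 95% interval −2.75 to −1.35, edgeR adjusted p = 0.000284), the 7th lowest value of the 15850 genes tested. It was called in each of the 19 alternative settings tried.

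Cd1d1, with a mean of 17.2 ± 2.36 CPM in C3 KO and 21.7 ± 3.69 CPM in WT (SD, n = 4 each), is the more abundant copy. It had 20.4, 16.5, 17.04 and 14.7 CPM in C3 KO replicates 1 to 4, against 18.4, 23.7, 18.7 and 25.8 CPM in WT replicates 1 to 4. C3 KO replicate 1 lay inside the WT range, and the other 3 C3 KO libraries lay below all WT libraries. Its log2 fold change of −0.33 (SE 0.12, 95% interval −0.57 to −0.09) was not called (edgeR adjusted p = 0.0639). It was called without C3 KO replicate 1 (adjusted p = 0.0251), without WT replicate 1 (0.0195) or without WT replicate 3 (0.0405), and by DESeq2 (0.0468).

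Summed, Cd1d1 and Cd1d2 had 17.7 ± 2.55 CPM in C3 KO and 23.7 ± 3.68 CPM in WT (SD, n = 4 each). The sum does not depend on how reads were split between the copies, but any reads dropped for matching both are missing from it. It was called lower, at −0.42 on the log2 scale (SE 0.11, 95% interval −0.66 to −0.19, edgeR adjusted p = 0.0162). The call ended without C3 KO replicate 4 (−0.36, adjusted p = 0.0629), without WT replicate 4 (−0.34, adjusted p = 0.0558) and with the Y-linked covariate (−0.38, adjusted p = 0.249). Within the sum, Cd1d2 took 3.38, 1.86, 3.82 and 1.89% of the reads in C3 KO replicates 1 to 4, against 11.6, 8.13, 8.57 and 7.36% in WT replicates 1 to 4. The highest share in C3 KO had a 95% Wilson interval of 2.20 to 6.56%, and the lowest in WT one of 5.31 to 10.11%. The shares did not overlap between the groups, with 2.74 ± 1.01% in C3 KO and 8.91 ± 1.85% in WT (2-sided exact permutation p = 0.0286, the smallest possible, and 0.0857 adjusted over the 6 ratios).

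**Figure D2:**
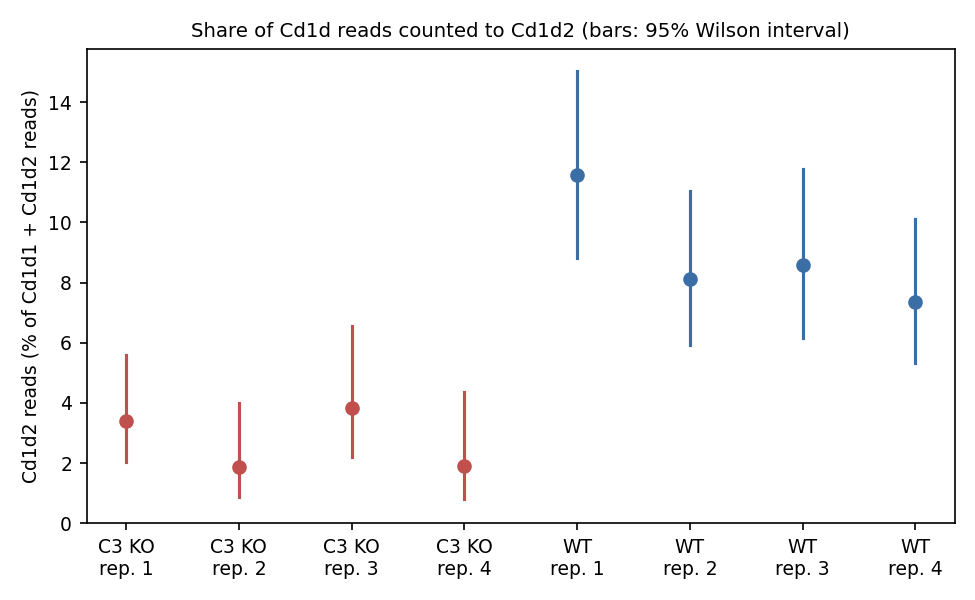
Share of the Cd1d1 and Cd1d2 reads that were counted to Cd1d2, in percent, for each library, with C3 KO left of WT; bars are 95% Wilson intervals, which cover counting error only. The 4 C3 KO libraries lie between 1.86 and 3.82% and the 4 WT libraries between 7.36 and 11.6%.

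The genes whose pattern over the 8 libraries was nearest to that of Cd1d2 were Hddc3, Gdpd3 and Serpina3n. Nearness was the root-mean-square difference of centred log2 CPM, which was 0.381 for Hddc3, 0.435 for Gdpd3 and 0.475 for Serpina3n among 15010 genes that averaged 1 CPM or more. Hddc3 had 16.9 ± 0.822 CPM in C3 KO and 52.4 ± 10.2 CPM in WT. Gdpd3 had 0.841 ± 0.1996 CPM in C3 KO and 3.30 ± 1.28 CPM in WT. Serpina3n, a secreted protease inhibitor, had 1.30 ± 0.225 CPM in C3 KO and 8.76 ± 0.588 CPM in WT (SD, n = 4 each). None of the 3 lies on chromosome 3, since Hddc3 and Gdpd3 are on chromosome 7 and Serpina3n is on chromosome 12. Since Cd1d2 differed between the groups, genes that differ in the same way are near it by construction.

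**Figure D3:**
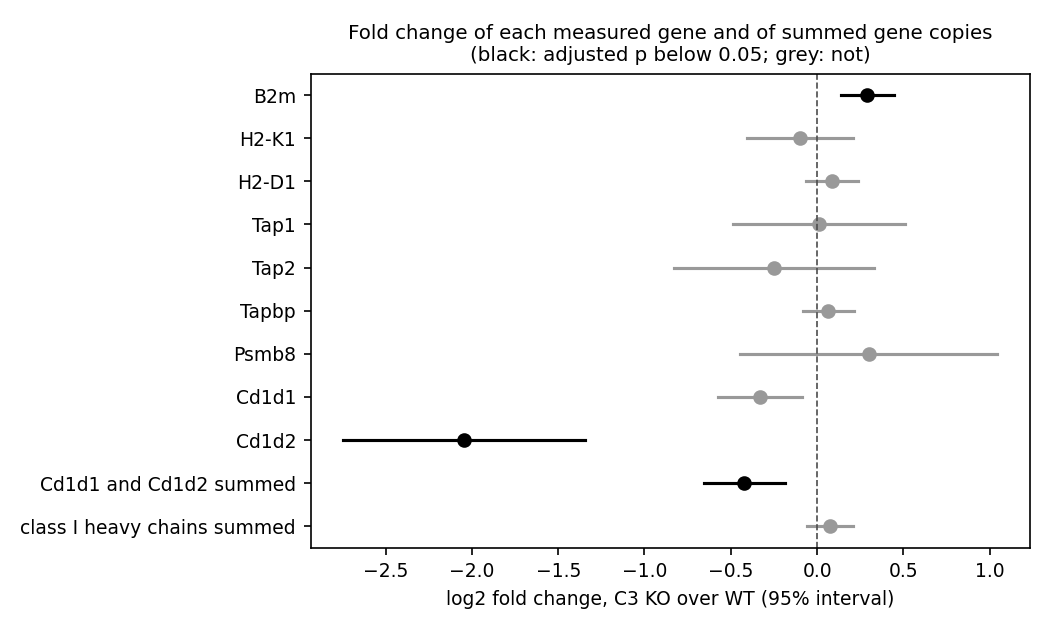
Log2 fold change of C3 KO over WT with its 95% interval for the 9 measured genes and the 2 sums of gene copies; black points were called at an adjusted p below 0.05. Cd1d2 stands at −2.05, B2m at 0.29, and the Cd1d sum at −0.42, while the interval of Cd1d1 lies below 0 without a call.

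Levels can be set against each other between genes only per length, as RPKM (reads scaled to gene length and library total). The deposited RPKM values contain an offset of about 2 reads, which lifts low levels such as those of Cd1d2 and Psmb8. The light chain led with 37.7 ± 2.54 RPKM in C3 KO and 31.0 ± 1.32 RPKM in WT (SD, n = 4 each). H2-D1 followed with 15.9 ± 1.57 RPKM in C3 KO and 15.05 ± 0.537 RPKM in WT. Both ranked above the other 7 of these genes in each library. Tapbp had 9.02 ± 0.142 RPKM in C3 KO and 8.68 ± 0.463 RPKM in WT. Cd1d1 had 6.70 ± 0.926 RPKM in C3 KO and 8.50 ± 1.46 RPKM in WT, so its range met that of Tapbp in the WT libraries and lay below it in the C3 KO libraries. H2-K1 came next, with 2.29 ± 0.269 RPKM in C3 KO and 2.46 ± 0.302 RPKM in WT. Cd1d2 had 0.486 ± 0.184 RPKM in C3 KO, within the ranges of Tap1, Tap2 and Psmb8, and 1.77 ± 0.213 RPKM in WT, above all of them. The last 3 averaged 0.525 ± 0.167, 0.717 ± 0.257 and 0.512 ± 0.154 RPKM in C3 KO for Tap1, Tap2 and Psmb8, and their ranges overlapped in both groups.

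Ratios within a library followed from these levels. B2m over the sum of H2-K1 and H2-D1 in RPKM was 2.47, 2.19, 1.79 and 1.92 in C3 KO replicates 1 to 4, against 1.77, 1.89, 1.68 and 1.75 in WT replicates 1 to 4. C3 KO replicates 1, 2 and 4 lay above all WT libraries and replicate 3 did not, and the difference of 0.322 in the means did not pass (2-sided exact permutation p = 0.0571, 0.114 adjusted over the 6 ratios). H2-K1 made up 12.7 ± 1.74% of the H2-K1 and H2-D1 RPKM in C3 KO and 14.1 ± 1.67% in WT (exact permutation p = 0.286). Tap2 over Tap1 was 1.39 ± 0.450 in C3 KO and 1.65 ± 0.622 in WT (exact permutation p = 0.543, SD, n = 4 each).

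**Figure D4:**
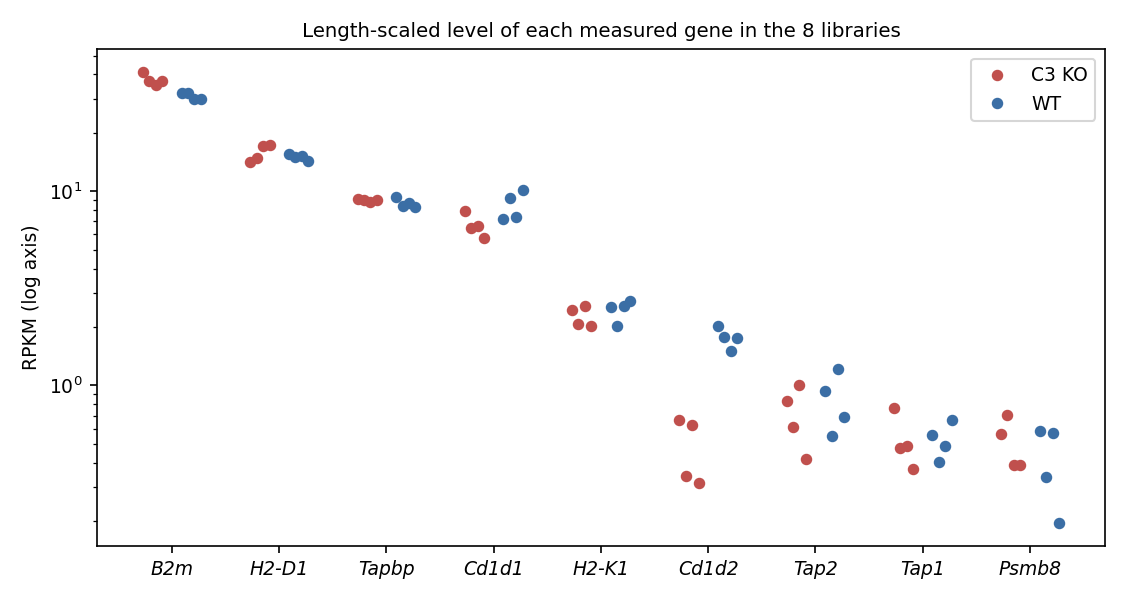
RPKM of the 9 measured genes in each library on a log axis, ordered by level, with C3 KO left of WT for each gene. Levels run from B2m, at 37.7 RPKM on average in C3 KO and 31.0 RPKM in WT, down to Tap1, Tap2 and Psmb8 below 1 RPKM on average, and Cd1d2 joins these in the C3 KO libraries.

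The other genes of the pathway are given list by list, and 14.3% of all genes tested were called. On lists this short, a count of calls does not set a list apart from that share. Of 24 listed other class I heavy chains, 10 were measured and 9 tested, and none was called, with 7 positive log2 fold changes and a median of 0.31. Examples were H2-M5 (log2 fold change 0.45, edgeR adjusted p = 0.0538), with 8.34 ± 0.853 CPM in C3 KO and 6.10 ± 1.39 CPM in WT, and H2-T22 (0.40, adjusted p = 0.162), with 4.56 ± 0.495 CPM in C3 KO and 3.45 ± 0.761 CPM in WT (SD, n = 4 each). H2-K2 and H2-Q2, at 0.59 and 0.81, did not pass either (adjusted p = 0.183 and 0.207). Summed, the 10 measured other heavy chains had 27.65 to 29.83 CPM in C3 KO and 21.13 to 26.55 CPM in WT. These ranges did not overlap, beside 17.4% of single genes tested, and a difference in this sum was not tested. Of 16 class I-like molecules only Mr1 (0.51), which presents vitamin metabolites, the antibody receptor Fcgrt (0.44) and the iron regulator Hfe (0.11) were measured, and none was called. The class II genes, of which 4 of 11 were measured, gave no call, from H2-Ab1 at −0.68 to Cd74 at 0.38. Of 13 receptors of class I and its coreceptors Cd8a alone was measured, at −0.27 (adjusted p = 0.423).

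Of 11 genes of peptide loading and folding in the endoplasmic reticulum, all were tested, 9 had a positive log2 fold change and 1 was called. Calr, a chaperone of the loading complex, was called higher by 0.14 on the log2 scale (edgeR adjusted p = 0.0373), with 606.5 ± 18.1 CPM in C3 KO and 550.4 ± 5.82 CPM in WT (SD, n = 4 each). It lost that call when any 1 library was left out (0 of 8 calls kept, adjusted p = 0.0515 to 0.118) and with the Y-linked covariate, at a similar 0.15 (adjusted p = 0.273). Canx and Hspa5, both at 0.12, were not called (adjusted p = 0.0799 and 0.130). Among 8 proteasome partners no gene was called, and the median was 0.003. The activator subunit Psme1 had 46.1 ± 2.33 CPM in C3 KO and 41.8 ± 1.09 CPM in WT (0.14, adjusted p = 0.134), and the constitutive Psmb5 stood at −0.16 (adjusted p = 0.344).

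Among 25 tested genes of class I transactivation and interferon signalling, 2 were called higher and 2 lower, and the median was −0.02. Ifngr2, a chain of the interferon gamma receptor, was higher, with 57.4 ± 4.03 CPM in C3 KO and 49.6 ± 3.47 CPM in WT (log2 fold change 0.21, edgeR adjusted p = 0.0343). Rfx5, which binds the X box of class I and class II promoters, was higher as well, with 29.8 ± 1.48 CPM in C3 KO and 25.5 ± 1.44 CPM in WT (0.22, adjusted p = 0.0491). Creb1 and Nfya bind neighbouring promoter boxes, Nfya as part of the complex that binds CCAAT, and both were lower by 0.17. Creb1 had 157 ± 7.64 CPM in C3 KO and 176 ± 7.501 CPM in WT (adjusted p = 0.0257), and Nfya 75.4 ± 1.03 CPM in C3 KO and 85.0 ± 3.28 CPM in WT (adjusted p = 0.0272, SD, n = 4 each). None of these 4 was called with the Y-linked covariate, where adjusted p ran up to 0.493. The log2 fold changes were then 0.20 for Ifngr2, 0.16 for Rfx5, −0.12 for Creb1 and −0.16 for Nfya, each with the sign it had without the covariate. Each lost the call in at least 2 of the 8 fits that left out 1 library, Rfx5 in all 8 (adjusted p = 0.0525 to 0.142). Creb1 lost it without C3 KO replicate 4 (0.0993) or WT replicate 2 (0.0718), and Nfya without C3 KO replicate 3 (0.0504) or 4 (0.0536) or WT replicate 1 (0.0636) or 3 (0.0633). Ifngr2 lost it without C3 KO replicate 1 (0.0588), 3 (0.142) or 4 (0.0984) or WT replicate 2 (0.111) or 4 (0.114).

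Of 22 interferon-stimulated genes, 11 were tested, 8 had a positive log2 fold change with a median of 0.16, and 1 was called. Lgals3bp, a secreted glycoprotein, was called higher by 0.88 on the log2 scale, with 6.55 ± 0.943 CPM in C3 KO and 3.56 ± 0.540 CPM in WT (edgeR adjusted p = 0.00114, SD, n = 4 each). It kept the call without each library in turn and lost it with the Y-linked covariate (log2 fold change 0.65, adjusted p = 0.156). Xaf1 (0.69), Gbp2 (0.41) and Oasl2 (−0.36) did not pass.

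Of 15 genes of CD1 trafficking and lipid handling, all were tested, 10 were positive with a median of 0.03, and 2 were called higher. Gm2a, an activator protein that lifts lipids out of lysosomal membranes, had 36.2 ± 2.43 CPM in C3 KO and 29.9 ± 0.858 CPM in WT (log2 fold change 0.28, edgeR adjusted p = 0.0101). Cathepsin S (Ctss) had 25.9 ± 1.27 CPM in C3 KO and 20.7 ± 3.76 CPM in WT (0.32, adjusted p = 0.0388, SD, n = 4 each). None was called lower, beside 5.98% of all genes. Gm2a kept its call without each library in turn but not with the Y-linked covariate (log2 fold change 0.33, adjusted p = 0.0949), and Ctss, which is also one of the microglia markers above, kept it in 3 of 8 fits that left out 1 library. Under the covariate Ctss was called at a larger log2 fold change of 0.56 (adjusted p = 0.0356). Ctss lost it without C3 KO replicate 1 (adjusted p = 0.0847), 3 (0.0848) or 4 (0.114) or WT replicate 3 (0.157) or 4 (0.122).

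**Figure D5:**
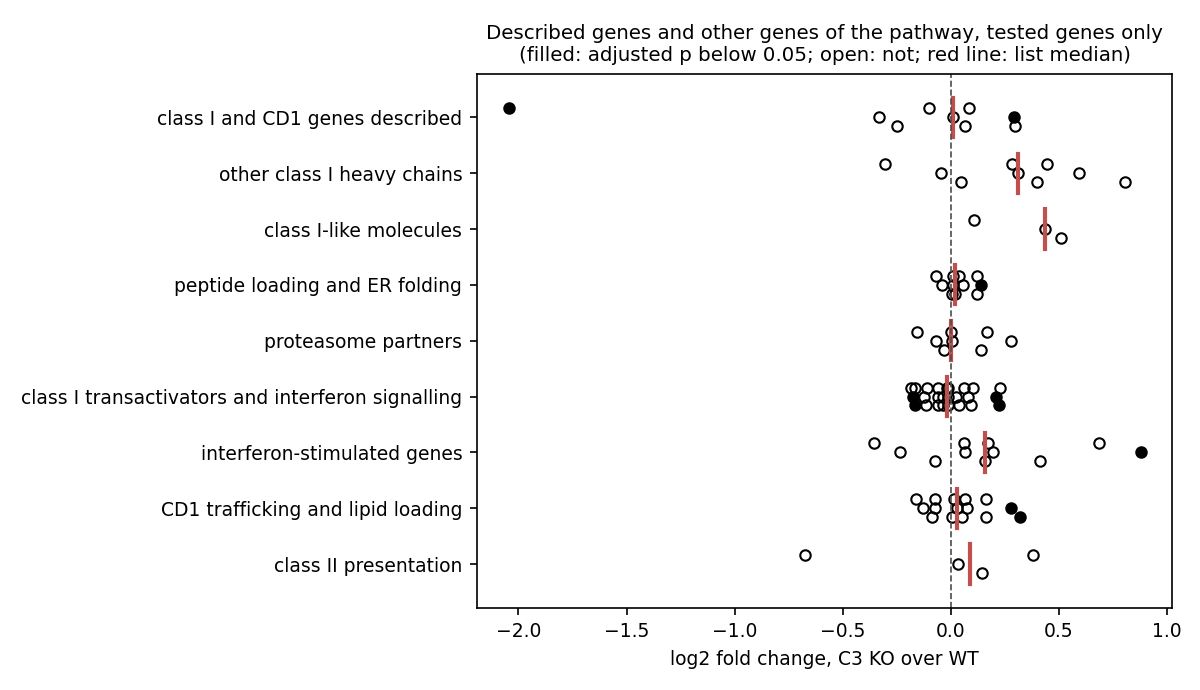
Log2 fold change of C3 KO over WT for the 9 measured genes (top row) and for the tested genes of 8 further lists of the pathway; filled points were called, and red lines give each list's median. Cd1d2 lies farthest from 0, at −2.05, and the largest called rise is Lgals3bp at 0.88.

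Of the 10 listed genes 7 lie on chromosome 17, the chromosome that also carries C3, B2m lies on chromosome 2 and both Cd1d genes lie on chromosome 3. None of the 6 measured genes on chromosome 17 was called, beside 14.3% of all genes, and 6 genes are too few to read a difference from that share. In the MHC interval between H2-K1 and H2-D1, and leaving out the 10 listed genes, 50 genes were tested, among them class II genes given above. Of these, 3 were called higher and 2 lower, beside 8.33% and 5.98% of all genes, and the median log2 fold change was −0.02. Higher were Col11a2, a cartilage collagen chain (0.67, edgeR adjusted p = 0.00105, 13.2 ± 1.153 CPM in C3 KO and 8.34 ± 1.37 CPM in WT), and Ager (0.59, adjusted p = 0.0121). Atp6v1g2, a neuronal proton pump subunit, was higher by 0.22 (adjusted p = 0.0236). Ddah2 was lower, with 150.6 ± 3.58 CPM in C3 KO and 184.0 ± 7.78 CPM in WT (−0.29, adjusted p = 0.000217), and so was the chaperone Bag6 (−0.15, adjusted p = 0.0265), which was named after its value was seen. Of these 5, Ddah2 alone was still called with the Y-linked covariate (−0.36, adjusted p = 0.00572). The log2 fold changes of the others were then 0.49 for Col11a2, 0.57 for Ager, 0.26 for Atp6v1g2 and −0.15 for Bag6. Col11a2, Ager and Ddah2 kept the call in all 8 fits that left out 1 library. Atp6v1g2 lost it without C3 KO replicate 3 (adjusted p = 0.098) or 4 (0.0965) or WT replicate 2 (0.109) or 4 (0.0507). Bag6 lost it without C3 KO replicate 1 (0.0862), 3 (0.0696) or 4 (0.0592) or WT replicate 3 (0.0539). The summed fibroblast and sclera markers were 490.2 to 688.9 CPM in C3 KO and 408.1 to 546.6 CPM in WT. Most of that sum was Igf2 (368.5 CPM in C3 KO, 288.1 CPM in WT, not called) and Pdgfra (214 and 161.2 CPM, called higher). No other marker of the list averaged above 10.4 CPM in either group, so the sum says little about them. Of 9 markers tested 5 were called higher, beside 8.33% of all genes. The part of these markers in the Col11a2 difference was not tested.

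Lymphocytes, the cells that read class I and CD1d, were represented by few measured markers. Of 16 lymphocyte markers 5 were in the table (Ptprc, Cd4, Cd8a, Lck and Zbtb16), with summed levels of 17.7 to 19.9 CPM in C3 KO and 14.5 to 19.6 CPM in WT. None was called, beside 14.3% of all genes, and 5 genes are too few to read a difference from that share. Zbtb16 is the factor that marks natural killer T cells but is made in other tissues too. Pigment epithelium markers, from the layer behind the retina, summed to 476.6 to 508.2 CPM in C3 KO and 334.4 to 361.9 CPM in WT, and 11 of 16 were called higher. Photoreceptor markers summed to 6921 to 8474 CPM in C3 KO and 8186 to 9159 CPM in WT, and 3 of 10 were called lower, beside 5.98% of all genes. Red blood cell markers summed to 18.1 to 23.2 CPM in C3 KO and 28.5 to 51.2 CPM in WT. All 5 tested were called lower, beside the same 5.98%. Ganglion cell markers summed to 3444 to 3896 CPM in C3 KO and 2680 to 3461 CPM in WT. Of these 9 of 13 were called higher, beside 8.33% of all genes, and none was negative. Endothelial markers summed to 375.3 to 449.5 CPM in C3 KO and 413.3 to 462.8 CPM in WT, ranges that overlap. Kdr alone averaged 231.6 CPM in C3 KO and 260 CPM in WT (not called), so the sum says little about the others. Of 15 endothelial markers 9 had a positive log2 fold change, with a median of 0.05, and 1 was called higher, beside 8.33% of all genes tested. The part of these tissues in the B2m and Cd1d2 differences was not tested.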

How the data were processed

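Poly(A) RNA of 8 retina libraries was sequenced, 4 labelled C3 KO and 4 labelled WT. The deposited count table holds whole-number reads per gene, not normalized. The submitters' processing notes name STAR, HTSeq, mm9 and NCBIM37, without versions. The authors also deposited log2 RPKM values, which match the logarithm of the count plus 2 reads up to a constant, with a largest deviation of 0.154. They were returned to the linear scale to compare levels between genes, and used for an alternative test. All deposited columns carried the name of a sample, and 0 were left without one. No library repeated another of its group, since chi-square per degree of freedom was at least 3.71 within a group. Libraries of different groups were not compared in this way. Depth was 16503564 to 19608824 reads per library, and intervals of shares (Wilson) cover counting error only, while intervals of fold changes come from the fit and include the spread between libraries.

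Counts were fitted in R 4.3.3 with edgeR 4.0.16 (robust quasi-likelihood test, TMM scaling, filterByExpr, no covariate) over all 15850 genes that passed the filter, with Benjamini-Hochberg adjusted p called below 0.05. The fit was tested on simulated data. Reads of gene copies were summed and refitted. Ratios per library were compared by a 2-sided exact permutation test (scipy 1.17.1). Alternatives were RLE and upper quartile scaling, DESeq2 1.42.0, limma 3.58.1 (voom, and log2 RPKM with a pseudocount of 1 or 0.1), no filter or a mean of at least 1 CPM, non-robust dispersion, a replicate block, a covariate of Y-linked log2 CPM, and each library left out.

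The genes described and all lists were chosen with earlier results of these data known. Named beside them were C3, up to 4 genes of each list and of the interval between H2-K1 and H2-D1 with the smallest p, and the 3 genes nearest to Cd1d2. Of 16109 symbols, 14428 matched the GENCODE M21 annotation (GRCm38), used for chromosomes and gene order, since the build differs from that of the counts. Shared 50-base stretches were counted on the same strand of its transcripts.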

Additional observations from a re-analysis of the deposited data

Results flagged for a closer look

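In 100 groups of 4 libraries, 2 had 1 library far from the other 3, where chance alone gives about 1 in 20. Creb1 was at 145.5 CPM in the library labelled C3 KO replicate 4, against 160.2 to 161.7 CPM in the other C3 KO libraries. Without that library Creb1 was not called (edgeR adjusted p = 0.0993). Nfya was at 73.9 CPM in the library labelled C3 KO replicate 2, against 75.8 to 76.0 CPM in the other C3 KO libraries.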

How the results depend on the processing

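Cd1d2 was called lower under all 19 alternatives, with a log2 fold change between −2.28 and −0.90 and an adjusted p of at most 0.0347. B2m was called under 18 of 19 (0.24 to 0.34), the exception being the Y-linked covariate. The log2 fold change of the Cd1d sum was −0.3836 with the Y-linked covariate, without a call, and lay between −0.5216 and −0.3386 when 1 library was left out. H2-K1, H2-D1, Tap2, Tapbp and Psmb8 kept their sign without a call in all 19, and the heavy chain sum in its 17, but their sizes were not stable. With 1 library left out, H2-K1 lay between −0.19 (without WT replicate 2) and −0.05 (without C3 KO replicate 4). H2-D1 lay between 0.03 (without C3 KO replicate 4) and 0.13 (without C3 KO replicate 1), Tap2 between −0.47 (without C3 KO replicate 3) and −0.03 (without WT replicate 3), Tapbp between 0.04 (without WT replicate 4) and 0.10 (without WT replicate 1), and Psmb8 between 0.05 (without WT replicate 4) and 0.52 (without WT replicate 1). Tap1 changed sign with voom (−0.01018), the replicate block (−0.004177), log2(RPKM + 1) (−0.005317) and log2(RPKM + 0.1) (−0.0237), and lay between −0.2393 and 0.1417 with single libraries removed. The cause was not tested. Of the genes described 2 were called, 1 with the Y-linked covariate, 3 by DESeq2, and 2 to 3 when 1 library was left out. Over all genes 2269 were called, against 530 with the Y-linked covariate, 1509 with log2(RPKM + 1), 1502 with log2(RPKM + 0.1), and 1305 (without C3 KO replicate 4) to 2543 when 1 library was left out. Calr, Creb1, Nfya, Ifngr2, Rfx5, Ctss and Atp6v1g2 were not called on RPKM. Tap1, Tap2 and Psmb8 had, together with Cd1d2, the widest intervals, with few reads and a wide spread between libraries.

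Same-numbered libraries did not deviate together over all genes (correlations −0.0597, 0.0885, 0.0038 and −0.0561). These values show no pairing by number, but cannot exclude it for a part of the genes, since each is taken over all of them. With the replicate block 2400 genes were called, against 2269 without it. Among them were 2 of the genes described, and the Cd1d sum was at −0.4203 (adjusted p = 0.019). Calr (adjusted p = 0.0524) and Rfx5 (0.0564) lost their call under the block. Rfx5 also lost it with RLE scaling (0.0552), no filter (0.0609) and a mean of at least 1 CPM (0.0507), and Calr with no filter (0.0555).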
